A study of Mus musculus with 12 samples.

Results

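Open chromatin in leukaemic mouse bone marrow driven by BRD9-NUTM1 (BN1) was compared with that in leukaemic marrow driven by MLL-AF9 (MA9). The comparison used 6 of the 12 ATAC-seq libraries of the series, chosen by sample name: BN1_1 to BN1_3 and MA9_1 to MA9_3. Both groups were CD45.2+ marrow cells of the C57BL/6 strain, with the genotypes CD45.2(+) BRD9-NUTM1 and CD45.2(+) MLL-AF9, and 150000 FACS-sorted cells went into each library. CD45.2 is the allele of the leukocyte surface protein CD45 that C57BL/6 mice carry. The remaining libraries, 3 of MLL-ENL leukaemia (ME; genotype CD45.2(+) MLL-ENL) and 3 of marrow with no fusion (Control; genotype CD45.2(+)), took no part in choosing regions and served only to look up regions chosen without them. The labels gave no age and no treatment. They did not state how the fusion genes were delivered, whether the 3 replicates of a group were separate animals, or which gate beyond CD45.2 defined the sorted cells. P-values therefore measure only the spread between these samples, which may be technical.

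BRD9 is a bromodomain subunit of the non-canonical BAF chromatin remodelling complex, and NUTM1 is a testis protein that binds the histone acetyltransferase p300. The fusion places a p300-recruiting domain on a remodelling complex. MLL-AF9 keeps the part of KMT2A (MLL) that binds menin and LEDGF on chromatin and gains AF9 (MLLT3), a subunit of transcription elongation complexes that also contacts the histone methyltransferase DOT1L. Its best known targets in blood progenitors are the Hoxa genes and Meis1. ATAC-seq reads out where a transposase can insert adapters into DNA, which happens mostly at active promoters and enhancers.

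Most regions specific to BN1 lay away from promoters, for which no sequence was used here. Sequence is shown for 8 promoters of genes named in the results, to show what stands there. Each run is the 150 bases just before the gene's start, 5′ to 3′ on the gene's strand, from RefSeq on GRCm38.p6. Capitals mark matches, on either strand, to 13 short motifs searched, of which 3 occur in these runs: the NFY motif CCAATCA, the SP/KLF motif GGGGCGGGG and the MEIS motif TGACAGNT. No 2 of these matches overlap. In lists of equal length, the first 3 promoters were called in every BN1 library and in no MA9 library: Fos (chr12:85473740-85473889, plus strand), Atf3 (chr1:191183334-191183483, minus strand) and Hspa1a (chr17:34972157-34972306, minus strand). Hoxa3 (chr6:52213068-52213217, minus strand), Cdk6 (chr5:3343743-3343892, plus strand), H2bc7 (chr13:23574208-23574357, minus strand) and H1f3 (chr13:23554882-23555031, plus strand) were called in the reverse pattern. Hoxa9 (chr6:52227371-52227520, minus strand) is shown because its gene had the highest MA9 signal of the Hoxa cluster.
Fos: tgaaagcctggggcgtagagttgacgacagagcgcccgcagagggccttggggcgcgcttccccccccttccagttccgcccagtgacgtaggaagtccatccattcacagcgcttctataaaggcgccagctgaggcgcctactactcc
Atf3: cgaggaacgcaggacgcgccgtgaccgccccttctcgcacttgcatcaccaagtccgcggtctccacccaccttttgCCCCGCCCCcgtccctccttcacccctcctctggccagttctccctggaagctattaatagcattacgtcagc
Hspa1a: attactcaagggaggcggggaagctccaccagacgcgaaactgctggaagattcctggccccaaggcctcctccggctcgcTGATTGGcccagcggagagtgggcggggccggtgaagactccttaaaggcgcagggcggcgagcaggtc
Hoxa3: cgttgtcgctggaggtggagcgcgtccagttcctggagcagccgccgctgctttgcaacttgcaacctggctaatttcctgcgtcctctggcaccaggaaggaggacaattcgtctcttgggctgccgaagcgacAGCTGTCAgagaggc
Cdk6: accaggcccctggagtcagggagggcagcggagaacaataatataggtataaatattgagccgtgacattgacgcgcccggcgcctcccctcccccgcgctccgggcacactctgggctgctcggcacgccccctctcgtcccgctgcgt
H2bc7: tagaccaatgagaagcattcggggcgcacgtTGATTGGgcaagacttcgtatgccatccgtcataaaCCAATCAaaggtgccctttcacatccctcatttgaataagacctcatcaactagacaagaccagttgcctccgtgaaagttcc
H1f3: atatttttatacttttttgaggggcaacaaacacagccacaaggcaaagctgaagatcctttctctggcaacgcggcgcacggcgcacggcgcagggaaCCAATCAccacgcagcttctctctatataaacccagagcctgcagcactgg
Hoxa9: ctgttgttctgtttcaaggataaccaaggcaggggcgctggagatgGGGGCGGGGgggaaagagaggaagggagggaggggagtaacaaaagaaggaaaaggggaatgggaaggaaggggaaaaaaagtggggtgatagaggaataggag
The Hspa1b promoter, whose gene is a near-identical copy of Hspa1a, differs from the Hspa1a run at 1 of 150 bases. Reads from the pair cannot be told apart reliably, so calls at either gene are uncertain.

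The BN1 libraries held far fewer peaks. On chromosomes 1 to 19 they listed 4258, 3011 and 3432 peaks, and the MA9 libraries 33588, 31968 and 32288. The groups did not overlap, and the MA9 mean was 9.14 times the BN1 mean (exact permutation test, two-sided, p = 0.1, the smallest that 3 libraries against 3 can give; 0.1 after Benjamini-Hochberg adjustment over the 8 library-level tests made). The total length covered by peaks was 15.0 ± 0.923 Mb in MA9 and 1.45 ± 0.288 Mb in BN1 (mean ± SD over 3 libraries; p = 0.1 by the same exact test). The lists carry no read totals, so depth is unknown. A region that a library did not list may still have been open in those cells. In bulk samples, fewer cells with an open region and less opening per cell cannot be told apart.

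Because of these lengths, every count is given for the deposited lists and for equal-length lists, the 3011 peaks of highest signal per library (signal is the authors' peak value, read as the area under the −log10 p curve). The BN1_2 list is used whole at that length. BN1_1 ended at a signal of 297.23, with 297.10 for the next peak, and BN1_3 at 227.70, with 227.59 next. The MA9 lists ended at 2433.03, 2245.63 and 2304.81, with 2432.87, 2245.15 and 2303.47 next, and kept 8.96%, 9.42% and 9.33% of their peaks. Peaks of the 6 libraries that shared 1 bp or more were merged into regions, and a region was specific to a side when all 3 of its libraries and no library of the other side had a peak there.

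Almost all regions called in BN1 cells were also called in MA9 cells, whereas most MA9 regions were not called in BN1. Of 36209 regions from the deposited lists, 14 were specific to BN1 (0.0387%), 23713 to MA9 (65.5%), and 2472 were called in all 6 libraries. Just outside the rule, 7 regions were called in 2 BN1 libraries and no MA9 library, and 3 in all BN1 libraries and 1 or 2 MA9 libraries. At equal length there were 4345 regions, of which 330 were specific to BN1 (7.59%), 543 to MA9 (12.5%), and 1705 were in all 6. Without BN1_1, the BN1 library with the longest list, the equal-length BN1 count rose to 563. These percentages are the background for the members named here. No test was made for single regions, for which an exact test of 3 libraries against 3 cannot go below p = 0.1.

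**Figure D1:**
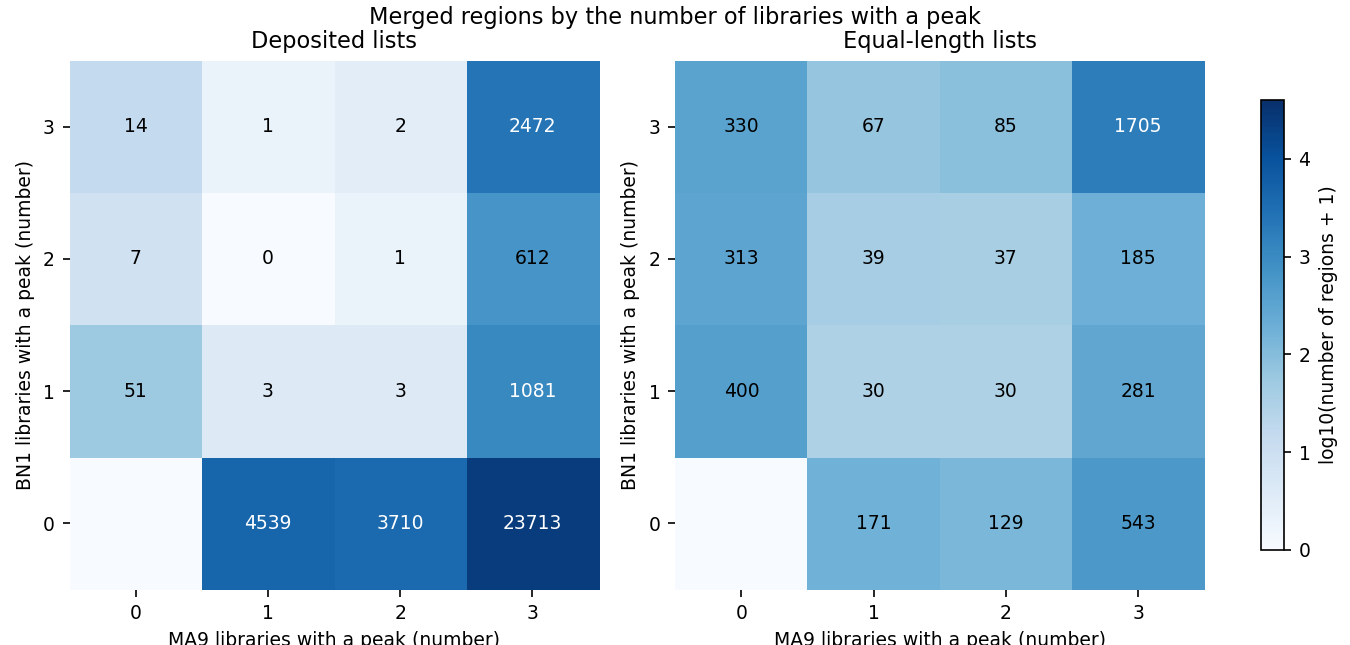
Number of merged regions by how many BN1 libraries (vertical axis) and MA9 libraries (horizontal axis) had a peak there, for the deposited lists (left) and the equal-length lists (right); colour is log10 of the count plus 1. In the deposited lists the corner with all BN1 and no MA9 libraries holds 14 regions against 23713 in the opposite corner, and at equal length 330 against 543.

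The equal-length BN1 regions were mostly regions that MA9 cells also had, lower in their order. Of the 330, 320 (97.0%) were called in all 3 full MA9 lists, 2 in 1 or 2 of them and 8 in none. Where called, their median percentile of signal in MA9 was 87.2 (interquartile range 82.6 to 89.0; lowest 17.6, highest 90.7), just under the point where the MA9 lists were truncated. Of the 543 MA9 regions, 355 were in no full BN1 list, 188 in 1 or 2, and none can be in all 3, since the BN1_2 list was used whole. Their median percentile in MA9 was 93.7.

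Regions of MA9 cells were called in BN1 cells mainly where their MA9 signal was high. Regions called in all 3 MA9 libraries were split into 10 equal groups by mean signal percentile. In the strongest group of 2788, 65.1% were called in all 3 BN1 libraries and 13.5% in none. In the next group 18.6% were called in all 3, in the one after it 3.08%, and in the weakest 0.0359%. In the strongest group, regions within 1 kb of a protein-coding gene's start or end were called in all BN1 libraries more often (67.9% of 2104) than those farther away (56.4% of 684), and in the next group less often (17.1% of 1710 against 21.1% of 1078). These shares rest on the same libraries throughout and are given without a test.

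**Figure D2:**
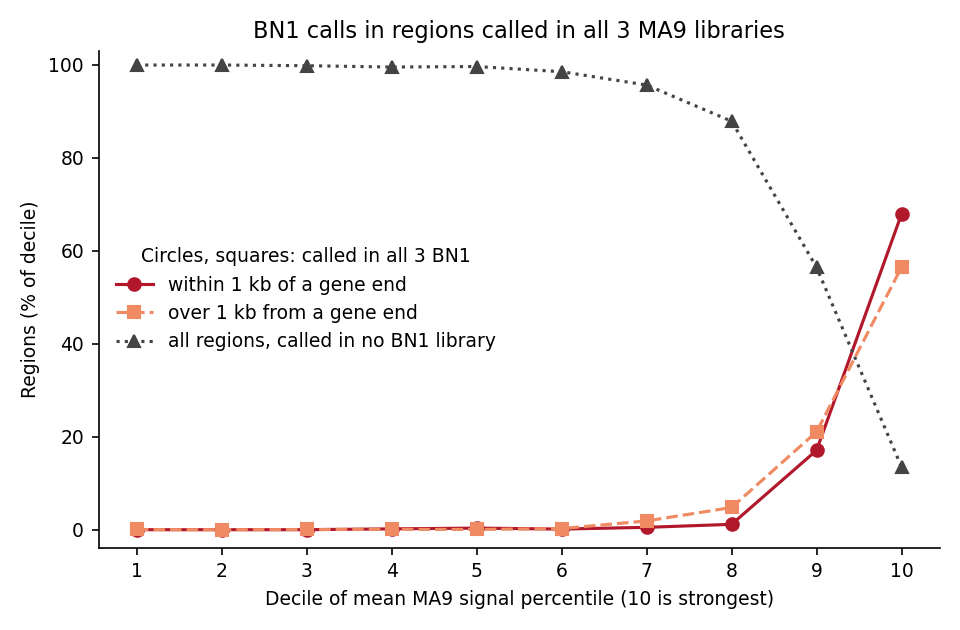
Share of regions (vertical axis, percent) in each of 10 equal groups of the MA9 signal order (horizontal axis, 10 is strongest), for regions called in all 3 MA9 libraries; circles and squares are regions also called in all 3 BN1 libraries, near to and far from gene ends, and triangles are regions called in no BN1 library. BN1 calls rise from near 0 to 67.9% near gene ends only in the strongest groups.

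BN1 and MA9 lists differed in where their peaks lay. Gene ends (windows of 1 kb around the start and the end of protein-coding genes) took 65.1%, 64.3% and 64.5% of BN1 peaks and 30.6%, 31.8% and 31.6% of MA9 peaks, so the groups did not overlap (difference 33.3 percentage points, exact permutation p = 0.1). At equal length the order turned: 68.8%, 64.3% and 65.6% in BN1 against 74.1%, 74.7% and 74.2% in MA9 (difference −8.09, exact permutation p = 0.1). Equal-length MA9 peaks were also wider, with medians of 1172, 1075 and 1100 bp against 402, 349 and 359 bp in BN1 (exact permutation p = 0.1). When peaks were ranked by signal per bp, the equal-length difference was 8.62 in favour of BN1, so its sign depended on the ranking. By class, 41.5% of the 330 BN1 regions lay at gene ends with a median width of 349 bp, against 66.7% and 1225 bp of the 543 MA9 regions and 79.6% and 1236 bp of the 1705 in all 6.

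The 14 regions of the deposited lists that were specific to BN1 lay mostly away from promoters: 1 of 14, near Gm51600, was at a gene end, and 1 of 20665 genes (0.00484%) had a gene-end peak in BN1 only. The strongest lay in Mepe, which encodes a bone matrix phosphoglycoprotein (chr5:104330695-104332284, within the gene span), at signal percentiles of 90.6, 94.7 and 86.0 in the 3 BN1 libraries. The next lay 27.9 kb before Cdh5, which encodes VE-cadherin, the adhesion molecule of endothelial cells (chr8:104071812-104073757; 88.9, 93.1 and 80.4). A region within the span of Map3k4, a kinase of stress signalling, followed (chr17:12249839-12250348; 48.7, 84.7 and 79.5). The other 11 had mean percentiles from 65.4 (near Gm51598) to 16.2 (near Gab1), and included Tmem30c, Adgb, Zfp64, Insig1, Gm51600, Gm7361, Speer4f2 and 2210408I21Rik. Speer4f2 belongs to a multi-copy family, in which reads of near-identical copies are uncertain. For the other regions, unique mapping of reads was not checked.

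In the libraries that had no part in the choice, all 3 ME libraries called 9 of these 14 regions, whereas no Control library called any. The regions near Map3k4, Tmem30c, Adgb and Zfp64 were called in no ME and no Control library. For comparison, ME libraries called 15.1% of the 23713 MA9 regions in all 3 lists and Control libraries 53.9%. At equal length, 45.8% of the 330 BN1 regions were in all 3 ME lists and 25.8% in all 3 Control lists, below the 60.9% and the 2171 regions of all 4345. The MA9 regions were also below them, at 38.3% and 31.3%. These shares were not tested.

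Several BN1 regions lay together before Cdh5. In the gene and the 40 kb before it, BN1 libraries had 6 peaks each, MA9 libraries 4, 5 and 4, ME libraries 4, 7 and 6 and Control libraries 3, 3 and 4. At equal length 5, 6 and 6 of these peaks remained in BN1 and none in MA9, and 5 regions there were BN1-specific. ME libraries kept 0, 1 and 2 peaks there and Control libraries 0 each. The region 24.1 kb before the gene was called in all 6 full lists, at percentiles of 87.8, 83.7 and 72.6 in BN1 and 69.2, 70.8 and 72.7 in MA9. The region 15.6 kb before it stood at 72.3, 88.3 and 76.7 in BN1 against 57.2, 56.1 and 64.3 in MA9. The BN1 peaks lay before the gene and none lay within it, while MA9 libraries had a further peak about 9 kb inside.

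**Figure D3:**
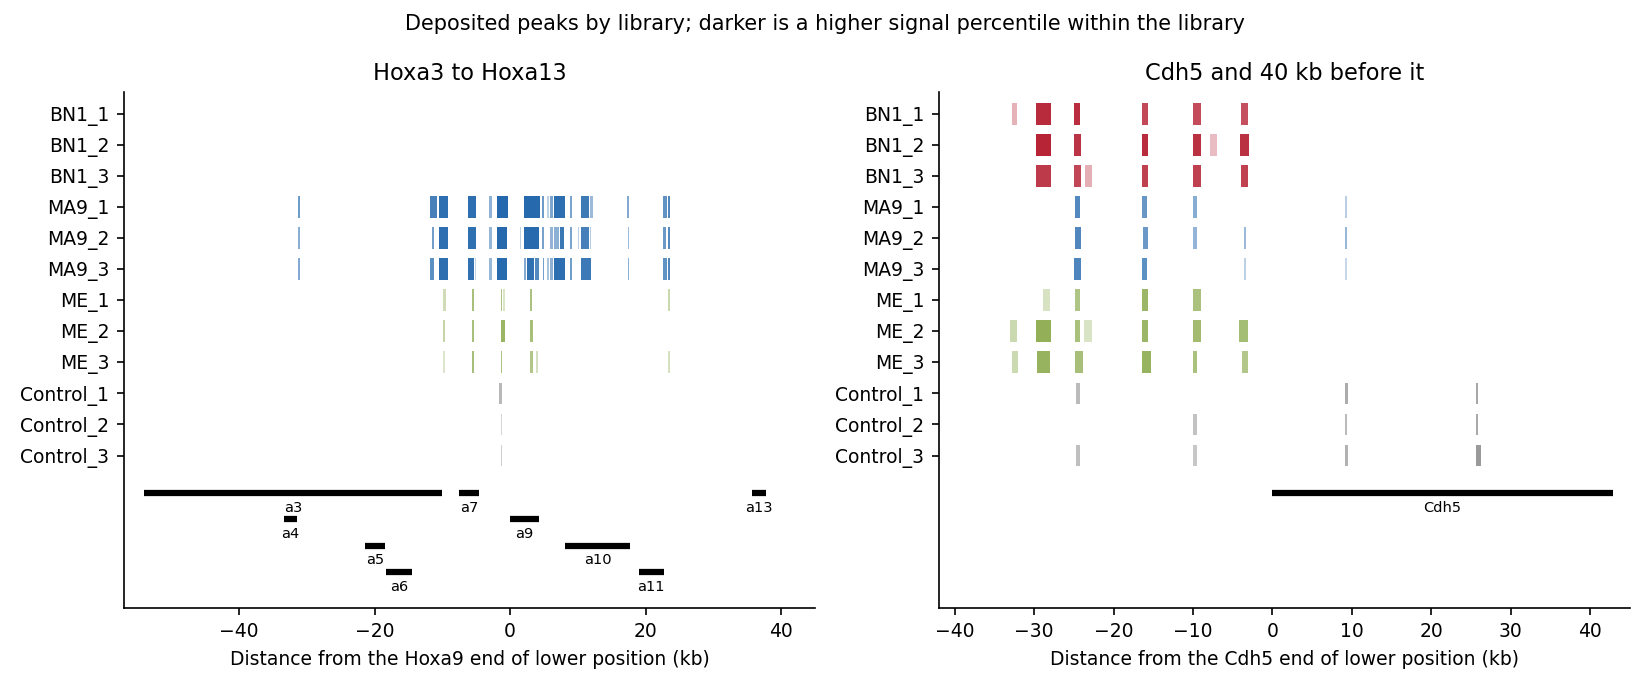
Deposited peaks in each library (rows) drawn to scale along the Hoxa cluster from Hoxa3 to Hoxa13 (left) and Cdh5 with the 40 kb before it (right); the horizontal axes give distance in kb from the end of Hoxa9 or Cdh5 with the lower position, black bars are gene spans (a9 is Hoxa9 and so on), and darker bars have a higher signal percentile in their library. BN1 rows are empty along the Hoxa genes, where MA9 rows hold many peaks around Hoxa9, and BN1 rows hold 6 peaks each at Cdh5.

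Among the other equal-length BN1 regions with the highest percentiles, most were narrow and lay off promoters. The highest was near LOC108167320 (chr9:124439114-124440943), at 99.6, 99.7 and 99.7 in BN1 and 87.1, 87.0 and 86.5 in MA9. Whether reads there map uniquely was not checked. Regions near Gm41099 (96.3, 91.5 and 87.3 in BN1; 38.9, 53.1 and 62.1 in MA9) and 24983 bp from Pdpn, which encodes the mucin-type membrane protein podoplanin (94.8, 86.4 and 83.8; 14.2, 6.4 and 32.1), stood furthest apart. The regions near Hrh2 (a histamine receptor; 283 bp), Them4 (223 bp), Slc8a1 (a sodium-calcium exchanger; 382 bp), Vmn2r102 (294 bp) and Dnah7b (276 bp) had MA9 percentiles from 78.1 to 90.3, all below the truncation point.

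MA9-specific regions were led by broad peaks, most of them at gene ends, and 5 of the first 12 lay at histone genes. The share of histone genes among all regions was not counted, so the 5 have no background beside them. Those specific both in the deposited and in the equal-length lists numbered 355. The highest was at Tsc22d2 (chr3:58414161-58417429; percentiles of 99.8, 99.7 and 99.8), followed by a region inside Smyd3, which encodes a lysine methyltransferase (99.6 in each library). Cdk6, the cyclin-dependent kinase of progenitor proliferation and a known MLL fusion target, had a region of 3753 bp over its start (chr5:3341093-3344845; 99.3, 99.5 and 99.5). The regions at the histone genes H2bc7, H1f3, H2bc12, H2ac13 and H2bc8 had mean percentiles of 99.3, 99.3, 99.1, 98.8 and 98.7. Acsf3 (99.3), Dyrk1a (99.0), Rdm1 (98.8) and Nsd1, a histone methyltransferase gene (98.7), completed the first 12. All of these were called in all 3 ME libraries. Control libraries did not call the Dyrk1a region and called the Smyd3 region in 2 lists. Other regions with equally high MA9 signal, near Nr3c1 (99.6), Hes7 (99.2), Sirt4 (99.2) and B4galnt1 (99.1), were called in BN1_1, at percentiles of 17.3, 14.7, 28.7 and 19.2, and in neither of the other BN1 libraries.

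The Hist1 cluster on chromosome 13, which holds the replication-dependent histone genes, had 16, 5 and 6 peaks in BN1 and 103, 98 and 99 in MA9. At equal length the counts were 10, 5 and 6 against 21 in each MA9 library, so the groups still did not overlap. ME libraries had 21, 22 and 20 there at equal length and Control libraries 26, 25 and 25. Some histone genes are close copies of each other, and reads between such copies are uncertain. Of 25 other cell cycle and DNA replication genes, 0 were called on 1 side only at equal length, where 0.682% of all genes were BN1-only and 2.39% MA9-only, too few to read anything from this count. By −log10 p Mcm5 was MA9-only, by signal per bp Mcm3 and Mcm5, and with lists of 1000 peaks Mcm4. Mcm4, Mcm7, Pcna, Ccna2, Cdk4 and Cdkn1b, 6 of the 25, were called in all 6 libraries, against 7.94% of all genes. In the deposited lists 12 of the 25 had a gene-end peak in MA9 only, among them Mcm5 and Cdk1, where 30% of all 20665 genes had one.

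At the Hoxa cluster BN1 cells had no peak in any library. MA9 libraries had 18, 20 and 20 peaks over the cluster and 10 kb on each side, ME libraries 7, 5 and 6 and Control libraries 2, 1 and 1. Of 11 Hoxa genes, 7 had a gene-end peak in all MA9 and no BN1 libraries in the deposited lists, against 30% of all genes. Hoxa9, the homeobox factor that sustains self-renewal in MLL-fused leukaemia, had the highest MA9 percentiles, 97.8, 97.4 and 97.0. Hoxa3 followed at 92.1, 92.3 and 92.6, Hoxa7 at 92.2, 91.6 and 90.6, and Hoxa10 at 92.9, 85.2 and 92.0. Hoxa11 (71.2, 68.9 and 70.7) and Hoxa4 (52.4, 37.5 and 40.3) were lower, and 4 of the 11 genes, Hoxa5 and Hoxa6 among them, had no gene-end peak on either side.

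At equal length 5, 4 and 3 peaks of the cluster remained in MA9, and 2 of the 11 genes, Hoxa3 and Hoxa9, were MA9-only, where 2.39% of all genes were. The Hoxa9 region (chr6:52221166-52222731) lies 366 bp beyond the 3′ end of the gene. The promoter of Hoxa9 itself had percentiles of 97.5, 97.0 and 69.1, with the peak of MA9_3 split into several. The Hoxa3 region (chr6:52212561-52213972) covers the gene start of the printed sequence. Ranked by signal per bp, no Hoxa gene was MA9-only, and ranked by −log10 p 1 was, Hoxa7.

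Genes of the Hox cofactor and MLL fusion target list also had gene-end peaks in MA9 and none in BN1. Unlike the Hoxa genes, many of them were called in Control too. In the deposited lists MA9 libraries called 13, 12 and 13 of 18 measured genes, Control libraries 10, 7 and 10 and ME libraries 3, 2 and 3. Meis1 and Flt3 were called in all 3 Control libraries and in no ME library, and Pbx3 in all 3 of both groups. In the deposited lists 12 of 18 measured genes were MA9-only, against 30%, and none had a gene-end peak in any BN1 library. They included Meis1, the partner of HOXA9 on DNA (88.9, 87.5 and 85.9 in MA9), Pbx3, a further partner (94.0, 94.1 and 93.4), Myc (78.6, 81.1 and 82.0), Myb (66.3, 61.3 and 55.7) and Flt3 (69.7, 68.6 and 65.2). At equal length Pbx3 and Cdk6 remained, against 2.39%, and ranked by signal per bp neither did. Every one of the 18 genes was the nearest gene to at least 1 MA9-specific region of the deposited lists, 106 regions in all. Of all genes with any region, 81.7% were.

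Of 26 measured genes of the fusion partners and their complexes, 9 were called in all 6 deposited lists, where 10.1% of all genes were, and 10 in MA9 only, where 30% were. At the end of lower position of Ep300, which encodes p300 (chr15:81584946-81586922), percentiles were 69.8, 18.9 and 40.9 in BN1 and 99.3, 99.3 and 99.1 in MA9. Smarca4, the ATPase of the remodelling complex, stood at 78.7, 37.8 and 60.5 against 97.7, 97.6 and 97.8, and Kmt2a at 70.8, 27.5 and 44.0 against 91.6, 91.9 and 93.0. Percentiles of lists of such unequal length do not show a change. Brd9, the normal copy of the BN1 fusion partner, was called in MA9 only (90.7, 87.9 and 88.0), as were Crebbp, Mllt3 and Mllt1. Nutm1 had no gene-end peak in any of the 6 libraries. These calls do not check the fusion genes, whose transcripts the data do not hold.

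At equal length the same list gave 1 BN1-only gene and 3 MA9-only genes, against 0.682% and 2.39% of all genes, with 6 called in all 6 libraries, against 7.94%. The BN1-only gene was Men1, which encodes menin, the anchor of MLL on chromatin: full-list percentiles were 79.3, 56.1 and 67.2 in BN1 and 88.8, 88.8 and 86.6 in MA9. The MA9-only genes were Bicral and Smarcc1, BAF subunits, and Mllt1, which encodes ENL. Ranked by −log10 p only Smarcc1 stayed MA9-only and Men1 was no longer BN1-only. Bicral was called in BN1_1 of the deposited list, at a percentile of 2.6.

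**Figure D4:**
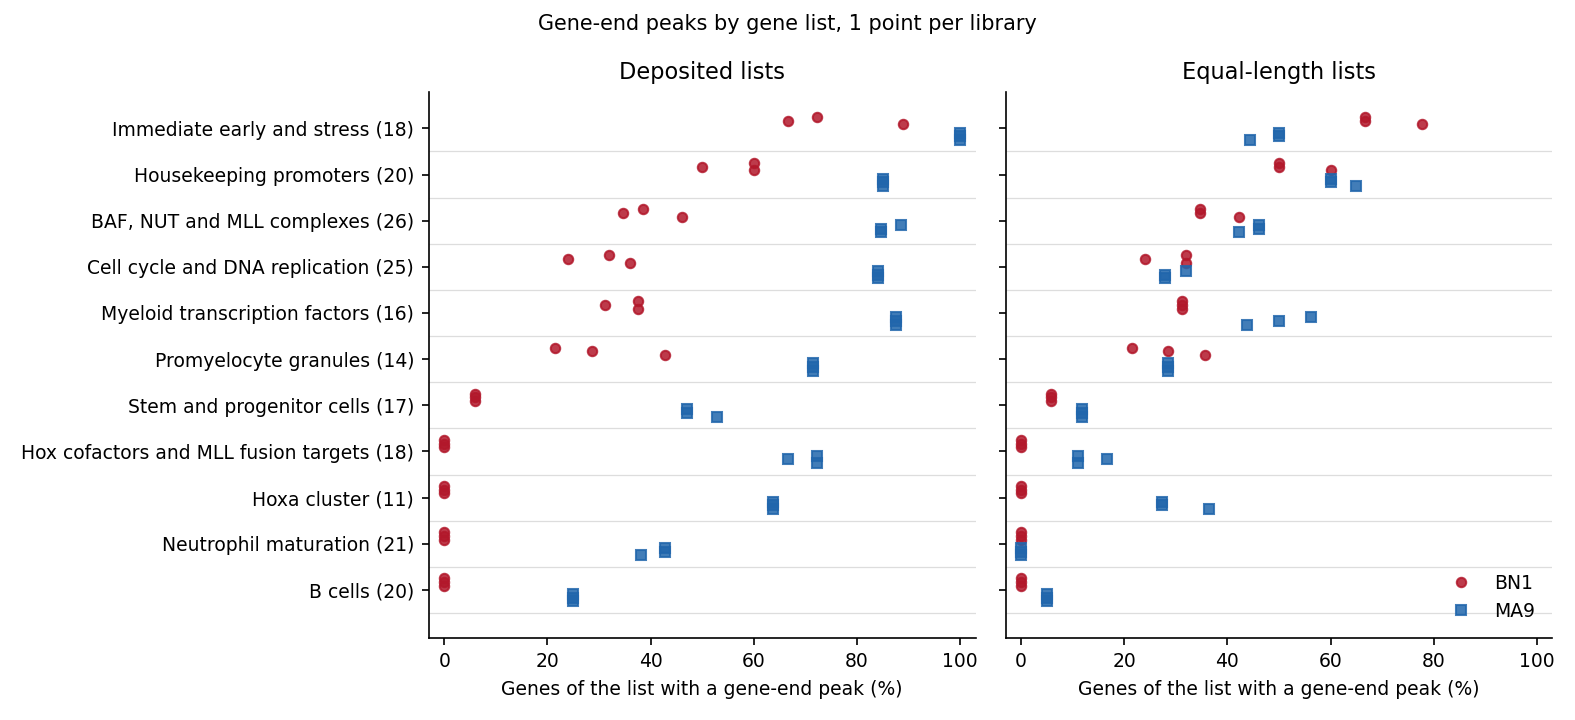
Share of the measured genes of each list (number in brackets) with a peak within 1 kb of a gene end, in percent, for the deposited lists (left) and the equal-length lists (right); each point is 1 library, circles BN1 and squares MA9. In the deposited lists every MA9 point lies above every BN1 point, and at equal length all BN1 points lie above all MA9 points only for immediate early and stress genes.

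Immediate early and stress genes were called more often in BN1 than in MA9 at equal length. These genes are switched on quickly by growth signals, heat and other stress. There, 14, 12 and 12 of 18 had a gene-end peak in BN1 and 8, 9 and 9 in MA9, and the ranges did not overlap. ME libraries had 10, 11 and 10 and Control libraries 11 each, between the 2 sides. BN1-only genes numbered 5 of 18, against 0.682% of all genes: Fos and Atf3, transcription factors of the AP-1 and ATF families, Hspa1a and Hspa1b, which encode the inducible chaperone HSP70, and Ddit4, a stress-induced inhibitor of mTOR signalling. None of the 18 was MA9-only (without BN1_1, Dusp1 and Dusp2 were), and 6 (Jun, Junb, Jund, Ier2, Hsp90aa1 and Dnajb1) were called in all 6 libraries. The list was drawn up with earlier results of these data known.

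All 5 genes were also called in every full MA9 list. Fos stood at percentiles of 66.5, 60.3 and 54.3 in BN1 and 86.5, 84.0 and 82.0 in MA9. Atf3 stood at 37.4, 9.9 and 34.6 against 88.3, 87.3 and 87.0, and Ddit4 at 54.4, 58.0 and 78.0 against 90.2, 89.9 and 90.2. Hspa1a stood at 52.7, 53.9 and 59.4 against 86.4, 88.2 and 87.6. The MA9 values lie just under the truncation point. These genes were therefore BN1-only by where the lists were cut, not by absence from MA9. Among the 2472 regions called in all 6 libraries, rank differences (BN1 minus MA9) varied. By signal, −log10 p and signal per bp they were 39.4, 19.3 and −3.55 at the Fos promoter and 29.8, 15.1 and 64.7 at Ddit4. At Hspa1b they were 8.17, 6.5 and 10.6, and at Atf3 0.69, −1.94 and −10.8. At equal length 9 of the 18 genes were the nearest gene to at least 1 BN1-specific region, where 8.33% of all genes with a region were. For MA9-specific regions the count was 0, where 14% were. Of the 18 genes, 17 had any region, and a gene with several regions has more chances to be counted. Jun and Junb, among the 9, also had gene-end peaks in all 6 libraries. Ranked by −log10 p, 2 genes stayed BN1-only (Fos and Hspa1a). Ranked by signal per bp there were 6, with Jund, Ier2 and Btg2 in place of Fos and Atf3. With lists of 2000 peaks Fos and Ddit4 were BN1-only and Dusp1 MA9-only, and with lists of 1000 peaks none was BN1-only, and Dusp1 and Ier2 were MA9-only. Not all such genes leaned to BN1: Egr1, an immediate early gene listed with the myeloid factors, was MA9-only at equal length, and Hsp90aa1 ranked higher in MA9 among the regions common to all 6 libraries (difference −27.2 by signal, −33.4 by −log10 p and −19.9 by signal per bp).

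In the deposited lists 30% of all genes were MA9-only and 10.1% were in all 6, beside which the counts for blood lineage genes stand. Of 16 myeloid transcription factors, Spi1 (PU.1), Cebpa, Cebpb, Cebpd and Nfe2 were called in all 6 deposited lists, and 7 were MA9-only, among them Runx1 (76.3, 74.0 and 77.5 in MA9), Irf8, Gfi1 and Klf4. Of 14 promyelocyte granule genes, Prss57, Calr and Ap3s1 were called in all 6, and Elane, Ms4a3 and Igsf6 in MA9 only. Mpo and Ctsg, which encode myeloperoxidase and cathepsin G, were called in all MA9 libraries and in BN1_1. Of 17 stem and progenitor genes, Lyl1 was called in all 6 and Kit, Hlf, Hhex, Gfi1b and Sox4 in MA9 only. The stem and progenitor share of MA9-only genes was near that of all genes, and the granule share below it. At equal length, where 2.39% of all genes were MA9-only, Hhex was the 1 such gene of these 17, at 97.2, 97.5 and 96.5. Of the 16 myeloid factors 2 were, Egr1 (98.1, 93.6 and 98.1) and Etv6 (96.0, 95.7 and 95.0), and the 5 named factors were called in all 6 libraries. By −log10 p and by signal per bp neither Egr1 nor Etv6 was MA9-only.

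Markers of other cell types were called more often in MA9 than in BN1 in the deposited lists, as were genes in general (30% MA9-only). Neutrophil maturation genes had a gene-end peak in 0 of 21 in each BN1 library and in 8, 9 and 9 in MA9, against 16, 16 and 17 in Control. S100a8, Camp, Mmp8 and Itgam were among the 8 called in all MA9 libraries. B cell genes gave 0 of 20 in each BN1 library, 5 in each MA9 library (Cd79a, Igll1, Blnk, Cd72 and Bank1) and 14 in each Control library, while Pax5 and Ebf1 were at 0 on both sides. Erythroid genes gave 1, 0 and 0 of 18 in BN1, 3 in each MA9 library and 17 in each Control library. At equal length the neutrophil count was 0 in all 6 libraries and the B cell count 1 in each MA9 library, Igll1. Of 9 NK cell genes and 20 genes silent in blood, only Mbp, in MA9, was called on either side. MA9-only genes were 8 of 21 for neutrophils, 5 of 20 for B cells and 2 of 18 for erythroid cells, the latter counts below the share of all genes. The part of these cells in the MA9-specific regions was not tested. Housekeeping promoters also differed in the deposited lists, with 12, 10 and 12 of 20 called in BN1 and 17 in each MA9 library.

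Regions called in all 6 libraries allowed an order over the same 2472 regions. A region was called when the 3 ranks of signal of 1 side lay above the 3 of the other and the means differed by 25 points of 100 or more. By this rule 267 ranked higher in BN1 (10.8%) and 298 in MA9 (12.1%). Ranks that did not overlap, at any size of difference, were higher in BN1 in 34.5% and in MA9 in 27.5% of regions. Gene ends made up 39.0% of the regions higher in BN1 and 77.9% of those higher in MA9, beside 70.6% of all 2472, and median widths were 739, 1498 and 1105 bp. Ranked by signal per bp the gene-end shares turned, to 80% of the regions higher in BN1 and 60.9% of those higher in MA9. The counts moved with the column used: ranked by −log10 p they were 212 and 167, and ranked by signal per bp 411 and 391. Of the 267 and 298, 30 and 71 had the opposite sign by −log10 p and 116 and 130 by signal per bp.

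Regions called higher in BN1 by all 3 rankings included those near LOC108167320, Gm41099, Pdpn, Pisd and Tnrc18. Whether reads map uniquely to these regions was not checked. The Cdh5 region 24.1 kb before the gene kept its sign but lost the call by signal per bp (difference 16.1). The LOC108167320 region had ranks of 99.4, 99.6 and 99.6 in BN1 and 11.1, 11.9 and 10.1 in MA9. The Pdpn region stood at 91.1, 83.8 and 77.8 against 0.04, 0.04 and 0.08, and the Cdh5 region 24.1 kb before the gene at 79.7, 80.7 and 62.9 against a mean of 1.42. Vmn2r102, Pisd, Tnrc18 and Them4 completed the 8 largest. Of these, Them4 lost its sign by both other rankings, and Vmn2r102 lost the call by signal per bp (difference 4.45). The Men1 promoter had a higher mean rank in BN1 by all 3 (43.5 points by signal, 36.3 by −log10 p, 33.7 by signal per bp). By signal per bp it was not called, as the ranks of the sides overlapped.

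Regions higher in MA9 were wide, and 7 of the 8 largest lay at gene ends (Elf2 did not). H1f2, a linker histone gene, ranked 32.5, 17.1 and 21.6 in BN1 and 97.7, 98.3 and 97.7 in MA9, and was lower in BN1 by all 3 rankings (differences of −74.2, −34.7 and −90.5). Dusp1, which encodes a phosphatase of MAP kinases, had a mean rank of 19.9 in BN1 and 93.9 in MA9, and Ep300 ranked 52.5, 12.7 and 23.8 against 91.1, 91.1 and 89.4. Both kept their sign by all 3 rankings, but not the call. Dusp1 lost it by −log10 p (difference −22.3) and by signal per bp (−16.8). Ep300 lost it by −log10 p (−20.9) and kept it by signal per bp (−27.4). Ep300, with a difference of −60.9, was not among the 8 largest, which included H1f2, Dusp1, Ywhag, Bad, Tent5a, Elf2 and Ppat. Of the last 5, the sign turned by −log10 p for Tent5a and Bad and by signal per bp for Tent5a and Ywhag. With the sign kept, the call was lost for Ywhag by −log10 p (−7.09) and for Elf2 (−8.97) and Bad (−23.3) by signal per bp. Ppat kept the call by all 3 rankings. Tent5a went from −71.2 by signal to 10.6 by −log10 p and 28.4 by signal per bp. The regions at Cebpb and Cebpd, ranked higher in MA9 by signal, turned in the same way, and the one at Spi1 by signal per bp.

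**Figure D5:**
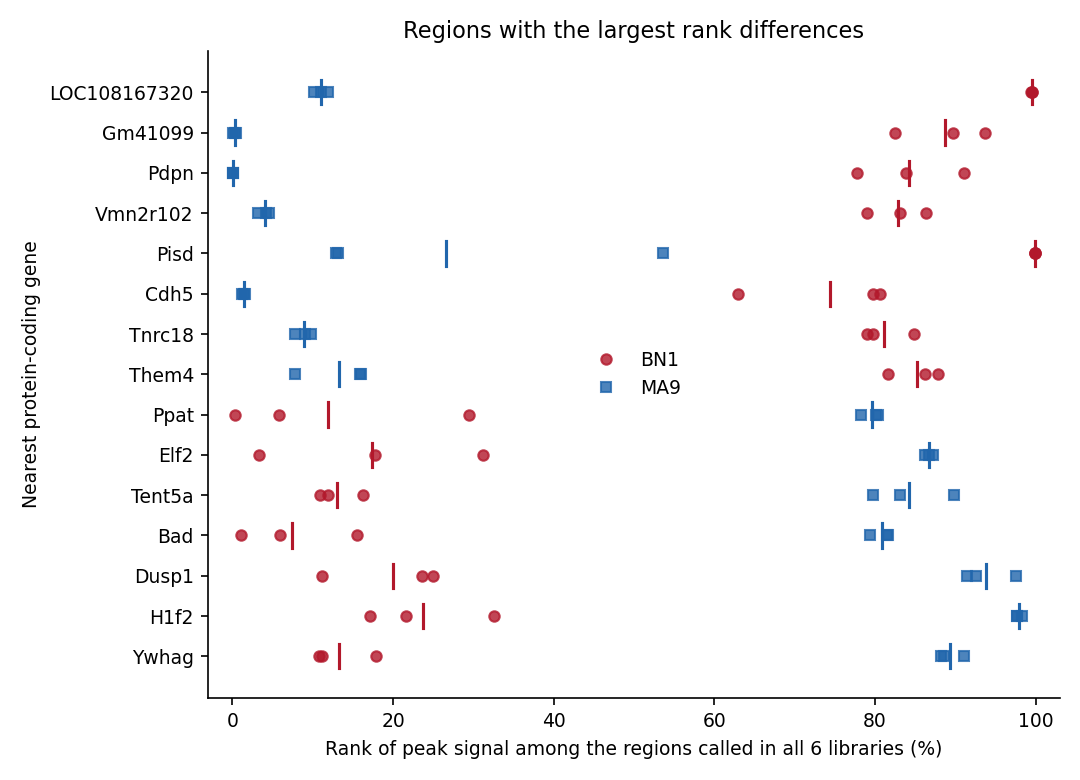
Rank of peak signal (horizontal axis, percent) among the 2472 regions called in all 6 libraries, for the 8 regions with the largest difference towards BN1 and 7 of the 8 towards MA9, among those whose ranks do not overlap; circles are BN1 libraries, squares MA9 libraries and vertical bars group means. For LOC108167320 the BN1 points lie above 99 and the MA9 points between 10.1 and 11.9, and for H1f2 the MA9 points lie above 97.

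The promoters called on each side were set against RefSeq promoter windows of 300 bp, from 250 bases before to 50 after a start. At equal length 147 of 31396 windows were called in BN1 only (0.468%) and 664 in MA9 only (2.11%), with 1647 called in all 6 libraries. The NFY motif occurred in 7.69% of all windows, in 19.4% of those called in all 6, in 19.7% of those called in BN1 only (29 of 147) and in 9.04% of those called in MA9 only (60 of 664). Under the other rankings and lengths the share was 16.6 to 22.4% on the BN1 side and 10.6 to 12.3% on the MA9 side. The SP/KLF motif occurred in 11.6% of all windows, 30.9% of those in all 6, 29.3% of BN1-only and 23.2% of MA9-only windows, and the order turned by −log10 p (20.4% and 28.4%) and by signal per bp (26.7% and 27.3%). The RUNX motif TGTGGTT was in 4.76% of BN1-only and 2.56% of MA9-only windows, below the 5.32% of all windows. The PU.1 motif GAGGAAGT was in 1.36% and 2.41%, against 3.25%. In the printed runs NFY matches lie 69 bases before the start of Hspa1a, 83 and 119 before that of H2bc7 and 51 before that of H1f3, so the motif also occurs on the MA9 side. A match is a description of the letters and not of binding.

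The Bmi1 neighbourhood on chromosome 2, which holds the self-renewal gene Bmi1, had 2, 1 and 1 peaks in BN1 and 31, 28 and 32 in MA9, but 2, 1 and 1 against 2 in each MA9 library at equal length. The span from S100a8 to S100a9 had no BN1 peak, 1 in each MA9 library and 7 in each Control library.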

How the data were processed

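ATAC-seq was run on each sample and 1 peak list per library was deposited. The submitters' processing notes name Genrich (version not given in the sources used here), deepTools 3.5.1, Picard 3.2.0 and Bowtie2 2.5.4, and the build GRCm38 (mm10). The authors deposited a signal value and a −log10 p for every peak. Their meaning is not stated; the signal was taken to be the area that Genrich reports, and both served only as ranks or percentiles within a library. Depth is unknown. Peaks on chromosomes 1 to 19 were merged, called and assigned to the nearest end of a protein-coding gene (RefSeq, GRCm38.p6) in Python 3.11.15 with numpy 2.4.6 and pandas 2.3.3. Merging was tested on simulated data. Named regions are the first 10 to 12 of each class by mean percentile, the 8 largest rank differences in each direction, and members of 21 gene lists (341 entries). Members, lists and motifs were chosen with earlier results of these data known. Alternatives are given in the closing section. Peaks on unplaced sequences were left out of the comparison. Results for some genes are not reported here.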

Additional observations from a re-analysis of the deposited data

Results flagged for a closer look

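Peaks on unplaced sequences, which the comparison left out, averaged 45.7 in the MA9 libraries (46, 45 and 46 of 33634, 32013 and 32334 peaks). Control libraries had 42, 42 and 44 of 27551, 25583 and 28067. As the lists differed in length, the MA9 counts, higher than those of Control, are not higher shares than in Control. The BN1 libraries had 1, 3 and 2 of 4259, 3014 and 3434, which are lower counts and also lower shares than in MA9.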

How the results depend on the processing

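Leaving out 1 library at a time gave 14 to 17 BN1-specific and 23791 to 25448 MA9-specific regions in the deposited lists, 351 to 563 and 569 to 761 at equal length (563 without BN1_1), and gene-end differences of 32.9 to 33.5 and −9.38 to −7.11 points. BN1-specific regions in the deposited lists numbered 132 with windows around summits and 4 with a signal of at least 400. At equal length they numbered 643 when 2 of 3 libraries sufficed, 203 with lists of 1000 peaks and 180 ranked by −log10 p, and MA9-specific regions 231 and 326 under the last 2. Signal per bp, chosen after seeing the data, reversed the equal-length gene-end difference to 8.62. Of common regions, 411 ranked higher in BN1 by signal per bp and 167 in MA9 by −log10 p. Rank differences that turned sign by −log10 p included Them4 −0.121, Tent5a 10.6, Bad 2.62, Cebpa 24.9, Cebpb 50.8, Cebpd 5.78 and Atf3 −1.94. By signal per bp they included Them4 −0.31, Tent5a 28.4, Ywhag 9.64, Spi1 38.6, Cebpa 58.6 (from −2.1 by signal), Cebpb 27.4, Cebpd 8.98, Fos −3.55 and Atf3 −10.8. The cause was not tested. Libraries of equal number correlated at 0.040, −0.0023 and 0.0066 in their deviations, and those of unequal number at −0.049 to 0.040. No pairing by number was seen, but 3 libraries a group are too few to exclude one. With a replicate block the gene-end differences were 33.3 and −8.09 (exact permutation p = 0.25, the smallest possible). Counts within gene lists were small and moved: BN1-only immediate early and stress genes went from 5 to 2, 6, 2 and 0 (by −log10 p, by signal per bp, with 2000 and with 1000 peaks), and MA9-only genes from 2 to 1, 0, 1 and 1 for Hoxa genes and likewise for Hox cofactors, and from 3 to 1, 1, 1 and 2 for the fusion partners' complexes. Without read totals, a missing call cannot be separated from low depth, and 3 libraries a group cannot give an exact p under 0.1.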
